A study of Mus musculus with 27 samples.

Results

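Mouse embryonic fibroblasts (MEFs) labelled Per1-/- were compared with MEFs labelled Per2-/- on day 2 of their conversion to induced neurons (iNs). The members of the comparison were 6 of the 27 bulk RNA-seq libraries of the series, 3 for each of the 2 knockout labels, and they were chosen by their genotype and day labels. The 3 WT libraries of the same day are given beside them. Of 54532 genes in the deposited table, 14932 had a mean of at least 0.5 FPKM (fragments scaled by gene length and library size) over the 27 libraries and were tested.

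The MEFs came from mid-gestation embryos of WT mice or of the Per1tm1Drw and Per2tm1Drw knockout lines, which are kept as B6.129 mice and carry their alleles in all cells. Cells of 4 embryos without heads and hearts were grown in a dish, and the sex of the embryos was left undetermined. All groups, WT included, were transduced with lentiviruses for neuronal transcription factors, Brn2 (Pou3f2) and Myt1l among them, together with the doxycycline-controlled activator M2rtTA. Doxycycline and the serum-free N3 medium were given from day 0, so that day 2 cells had been in both for 2 days. GEO's labels call the cells induced neurons at every time point.

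PER1 and PER2 are repressor proteins of the circadian clock. They hold back the transcription factors CLOCK and BMAL1, which bind E-boxes in the promoters of the Per genes and of many other genes. MEF cultures are mesenchymal in the main but carry a minority of tissue macrophages, which derive from early haematopoietic progenitors and depend on the receptor CSF1R. Macrophages take up dying cells, read immune complexes through Fc receptors, and make the complement protein C1q.

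The targeted genes were examined in each library as a check of the labels. Per1 measured 4.49, 4.51, and 3.62 FPKM in replicates 1 to 3 labelled Per1-/-, 4.58, 4.60, and 4.46 FPKM in those labelled Per2-/-, and 4.76, 4.81, and 4.83 FPKM in WT. The groups overlapped between the knockout labels, and the 95% interval of the log2 difference ran from -0.40 to 0.17. Per2 measured 2.02, 1.85, and 1.79 FPKM in the Per1-/- libraries, 2.77, 2.97, and 2.75 FPKM in those labelled Per2-/-, and 1.55, 1.78, and 1.39 FPKM in WT. Every library labelled Per2-/- therefore held more Per2 transcript than any other library of the day. The Per2 label exceeded WT by 0.82 on the log2 scale (limma adjusted p = 0.0191), which goes against a knockout read as loss of the transcript. The paper checked the genotypes by western blotting and reports that each knockout's MEFs had lost the protein of the targeted gene. Transcript levels do not measure protein. A level over all exons does not show which exons were read, so that the libraries are called by their labels here.

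Sequencing gave 17741879 to 21480812 fragments on genes per library. Within a group, the scatter between replicates was 9.01 to 28.9 times that of counting alone, measured as chi-square over its degrees of freedom, so no pair was counted as a single library. Replicate 1 labelled Per1-/- stood apart in its sex-linked genes. Xist, the RNA that silences an X chromosome in female cells, was listed at 0.00478 FPKM there, against 15.5 to 42.9 FPKM in the other 5 libraries of the knockout labels. Ddx3y, a gene of the Y chromosome, stood at 24.1 FPKM in that library and at 5.64 to 12.7 FPKM in the other 5. Replicate 1 labelled Per1-/- was just as low in Xist before doxycycline (0.00288 FPKM on day 0) and later (0.00271 FPKM on day 4), so libraries of the same label and number on different days are not independent. Counts that moved most without this library are also given without it.

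Few genes passed the test with correction over all genes. A gene was called when limma gave a Benjamini-Hochberg adjusted p at or under 0.05 and the labels differed by 0.58 or more on the log2 scale. This rule called 9 genes higher in the Per1-/- libraries (0.0603% of those tested) and 2 lower (0.0134%). The wider rule used below for gene groups, an unadjusted p of at most 0.05 with the same fold change and no correction for the number of genes, took in 459 genes higher in the Per1-/- label (3.07% of those tested) and 136 lower (0.911%). The median log2 difference of all tested genes was -0.01. In 1283 genes (8.59%) all 3 Per1-/- libraries lay above all 3 Per2-labelled ones, and in 1120 genes (7.5%) all lay below. The 9 higher calls became 5, 2, 1, 3, and 3 without Per1-/- replicates 1 and 3 and Per2-labelled replicates 1, 2, and 3. The 2 lower calls became 1, 1, 0, 0, 0, and 0 without Per1-/- replicates 1, 2, and 3 and Per2-labelled replicates 1, 2, and 3, and the 136 lower genes of the wider rule became 211 without Per1-/- replicate 2. A fit of the 9 day 2 libraries alone called 78 higher and 4 lower. A fit of the 6 compared libraries alone called 0 in either direction with limma (lowest adjusted p among the 11 genes 0.0963). There, 1565 of the 14932 tested genes had an unadjusted p at or under 0.05.

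The gene with the strongest call lay close to Per2. D2hgdh, which encodes the mitochondrial D-2-hydroxyglutarate dehydrogenase, measured 3.77, 3.87, and 3.38 FPKM in the Per1-/- libraries and 1.73, 1.68, and 1.54 FPKM in the Per2-labelled ones. The 2 groups were far apart relative to their spread, and the WT libraries (3.78, 3.66, and 3.61 FPKM) stood with the Per1-/- libraries. The difference was 1.11 on the log2(FPKM + 0.1) scale (SE 0.122, adjusted p = 0.000173), or 2.15-fold, from 129 to 376 fragments per library. Against WT, which shares libraries with the other contrasts, the Per2 label was lower by a log2 difference of -1.11 (adjusted p = 0.000158) and the Per1-/- label differed by -0.01. D2hgdh lies on chromosome 1 (93824909 to 93852348 in GRCm38), 2.41 Mb from Per2, and no other gene of the table overlaps it.

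Xaf1, near Per1, differed in the Per1-/- label alone. It encodes XIAP-associated factor 1, an interferon-inducible protein that favours apoptosis. Its level was 11.9, 8.32, and 7.56 FPKM in the Per1-/- libraries, 1.37, 2.29, and 2.00 FPKM in the Per2-labelled ones, and 1.94, 2.12, and 1.56 FPKM in WT. The Per1-/- label was thus 4.72-fold above the Per2 label (log2 2.24, SE 0.332, adjusted p = 0.00891) and above WT (log2 2.23, adjusted p = 0.0191), whereas the Per2 label differed from WT by -0.01. Xaf1 lies on chromosome 11 (72301629 to 72313733), 3.21 Mb from Per1. It was 1 of 22 genes on the list of interferon-stimulated genes, of which 20 were tested. Of the 20, 3 passed the wider rule, all higher, against 3.07% of all tested genes. The others were the 2′-5′-oligoadenylate synthetases Oas2 (log2 1.07, adjusted p = 0.282) and Oas1a (log2 0.78, adjusted p = 0.526). The median of the 20 was 0.32 on the log2 scale.

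The reference promoters of these genes are printed for context, since they had the calls that held best when libraries were left out. The 250 bases before the start were taken from RefSeq (GRCm38.p6), which is the reference strain's sequence and not that of the knockout lines. RefSeq places the start of D2hgdh further downstream than the deposited table does, so its window lies within the gene span given above. Capitals would mark an E-box (CACGTG), the ETS core with PU.1 flank (GAGGAA), or an interferon-stimulated response element, searched on both strands.
D2hgdh, chr1:93824990-93825239, plus strand: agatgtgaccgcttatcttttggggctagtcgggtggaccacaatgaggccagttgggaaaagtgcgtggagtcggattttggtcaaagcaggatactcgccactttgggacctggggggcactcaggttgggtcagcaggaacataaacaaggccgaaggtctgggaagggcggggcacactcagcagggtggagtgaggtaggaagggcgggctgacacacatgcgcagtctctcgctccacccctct
Xaf1, chr11:72301379-72301628, plus strand: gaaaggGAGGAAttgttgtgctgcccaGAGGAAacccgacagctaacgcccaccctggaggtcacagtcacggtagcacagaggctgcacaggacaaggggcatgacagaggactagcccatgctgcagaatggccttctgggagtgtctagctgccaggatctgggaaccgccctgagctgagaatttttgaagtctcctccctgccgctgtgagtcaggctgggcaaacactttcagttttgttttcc
The D2hgdh window held none of the 3 motifs, and that of Xaf1 held GAGGAA at 2 places. Of 32817 promoter windows of this length, 6.02% held the E-box, 23.3% GAGGAA, and 2.97% the interferon-stimulated response element. A match is a description of letters and not a bound site.

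The other 4 calls on chromosomes 1 and 11 lay farther from the targeted loci, among them Tnfrsf11a (14.4 Mb from Per2) and Evi2a (10.4 Mb from Per1), which are described below. Tmem37, a membrane protein related to calcium channel gamma subunits, measured 1.93, 2.55, and 2.61 FPKM in the Per1-/- libraries and 6.59, 4.73, and 5.26 FPKM in the Per2-labelled ones. It was lower by a log2 difference of -1.19 (SE 0.223, adjusted p = 0.0454), and the Per2 label exceeded WT (2.27, 2.07, and 2.04 FPKM) by 1.32 (adjusted p = 0.0351). Steap3, a metalloreductase that reduces endosomal iron, starts 0.123 Mb away from Tmem37 on chromosome 1 and 28.8 Mb from Per2. It measured 5.62, 3.77, and 3.51 FPKM against 8.6, 6.75, and 8.15 FPKM (log2 -0.87, adjusted p = 0.28). Gm6685, a predicted gene on chromosome 11, 40.8 Mb from Per1, is annotated as protein-coding in the deposited table. It measured 2.86, 4.51, and 4.41 FPKM against 0.926, 1.28, and 0.601 FPKM (log2 1.99, SE 0.32, adjusted p = 0.0145). If it is a copy of another gene, reads may be shared between them, so this value is uncertain.

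A call on mitochondrial DNA was mt-Tv, the mitochondrial valine tRNA, with 0 fragments in all 3 Per1-/- libraries and 5, 2, and 7 in the Per2-labelled ones. The Per1-/- level was at least 4.97-fold lower, with 3 fragments over the group taken as the floor. WT libraries also held 0. The RNA is 69 bases long and the libraries were made from polyadenylated RNA, and 14 fragments in all carried this call.

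**Figure D1:**
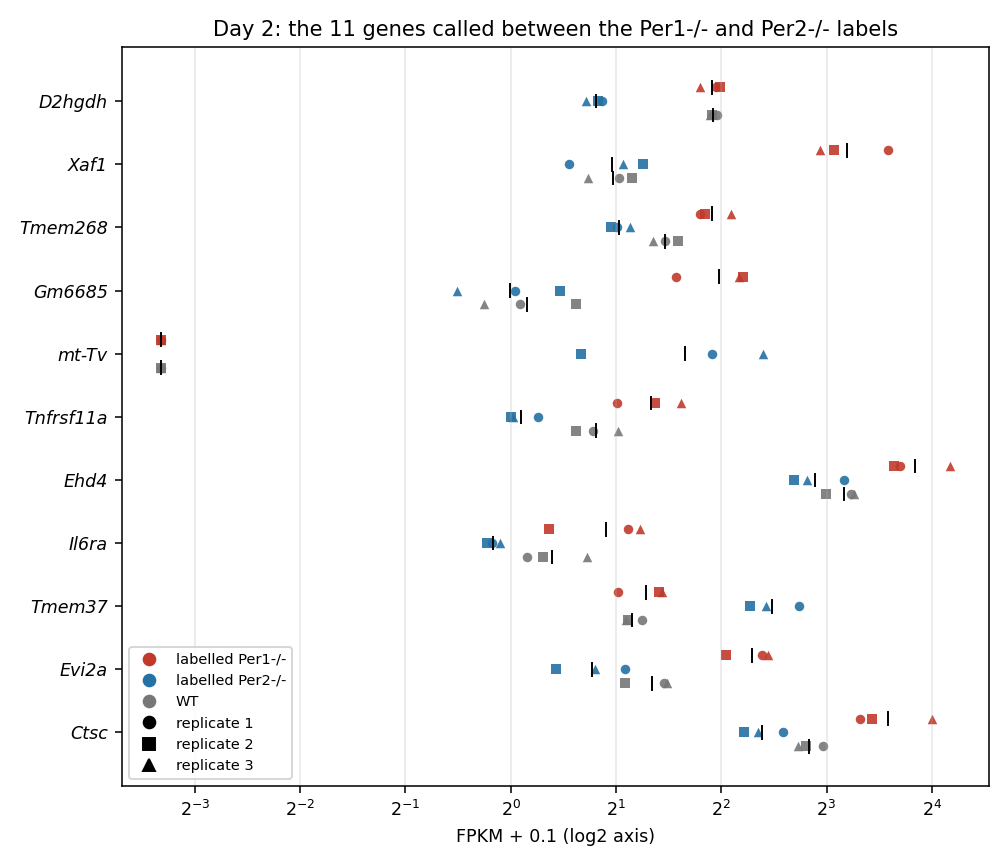
Levels of the 11 genes called between the Per1-/- and Per2-/- labels on day 2, as FPKM + 0.1 on a log2 axis, with 1 point per library (colour for the label, shape for the replicate number) and a bar at the mean of the log values. The knockout labels do not overlap in any of the 11 genes, and the grey WT points stand with the Per1-/- label for D2hgdh, Tmem37, and mt-Tv, with the Per2 label for Xaf1 and Gm6685, while the WT mean lies between those of the labels for the other 6.

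Genes within 20 Mb of the targeted loci were counted after D2hgdh and Xaf1 had been seen, so the counts are a description. Around Per2, 12 of 164 tested genes (7.32%) were higher in the Per1-/- label by the wider rule and 1 was lower. Around Per1, 27 of 506 (5.34%) were higher and 2 were lower. Over all tested genes the shares were 3.07% and 0.911%. With correction over all genes each window held 2 higher calls, D2hgdh and Tnfrsf11a around Per2 and Xaf1 and Evi2a around Per1. Bok, which encodes a proapoptotic member of the BCL-2 family, starts 0.139 Mb from D2hgdh and measured 7.90, 9.97, and 8.80 FPKM against 5.76, 4.46, and 3.99 FPKM (log2 0.90, SE 0.212, adjusted p = 0.114). Its WT level (9.59, 11, and 11 FPKM) overlapped that of the Per1-/- libraries and lay above that of the Per2 label, as for D2hgdh. The counts near Per1 include Cd68, a lysosomal glycoprotein of macrophages, the chemokine Cxcl16, and the chemokine genes Ccl8, Ccl12, Ccl9, and Ccl4, which lie 13 to 14.6 Mb away. Of these, Cd68 is on the macrophage list and Cxcl16, Ccl12, Ccl9, and Ccl4 are on the cytokine list described below. The counts near Per2 include Inpp5d, which is on the Fc receptor list described below. They also include Fn1 and Igfbp5, described below among matrix and growth factor genes.

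The genes near the targeted loci were also followed on the other days. D2hgdh stood at 1.25 to 1.38 FPKM in the Per2 label and at 2.05 to 2.60 FPKM in the Per1-/- label on day 0 (log2 0.72, adjusted p = 0.0387), and the difference was 1.11 on day 4 (adjusted p = 0.000179). WT libraries stood at 1.86 to 2.47 FPKM on day 0 and at 3.61 to 3.78 FPKM on day 2, and no library labelled Per2-/- reached the latter range on any of the 3 days. Gm6685 differed on day 0 by 2.43 (adjusted p = 0.00309) and on day 4 by 2.39 (adjusted p = 0.0016). Xaf1 was higher in the Per1-/- label by 1.69 on day 0 (adjusted p = 0.127) and by 1.75 on day 4 (adjusted p = 0.017). Steap3 was lower by -1.62 on day 0 (adjusted p = 0.0387). Bok, by contrast, differed by -0.19 on day 0 (adjusted p = 0.95), and its difference was larger by 1.09 on day 2 than on day 0, which did not pass as an interaction (adjusted p = 0.987).

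**Figure D2:**
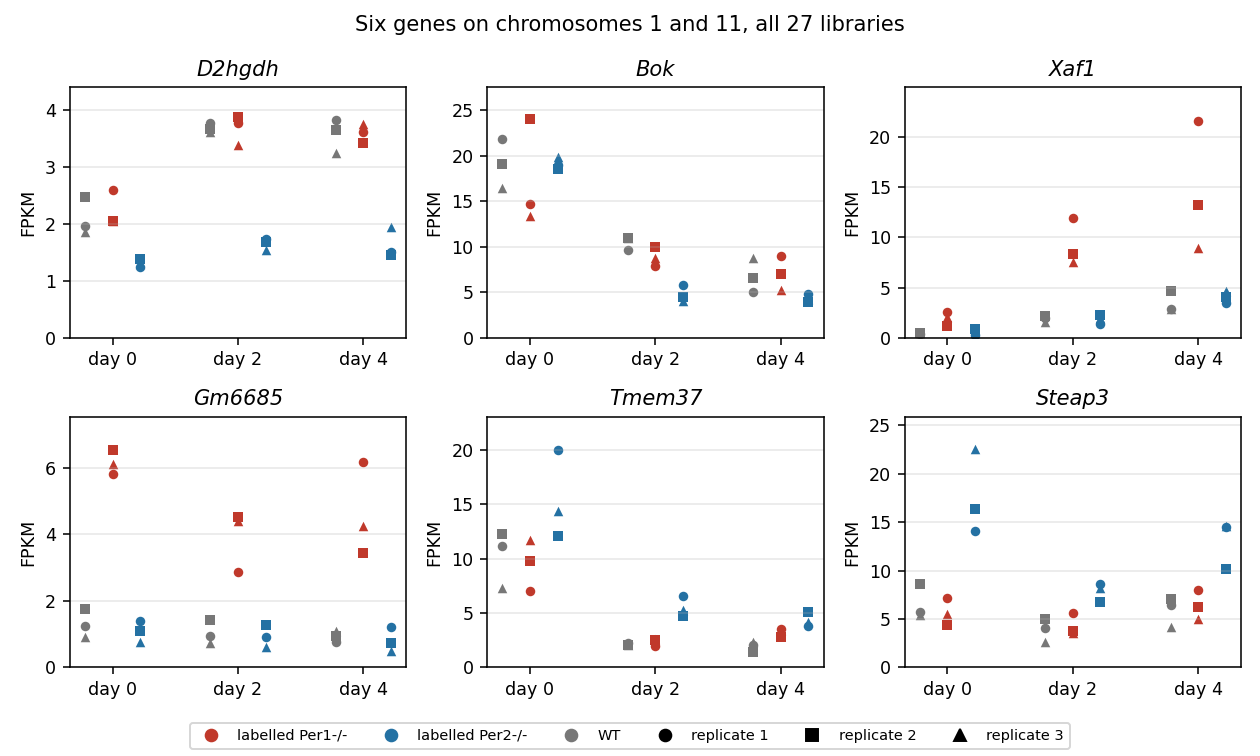
FPKM (linear axis from 0) of D2hgdh, Bok, Xaf1, Gm6685, Tmem37, and Steap3 in the 27 libraries, by day, with colour for the label and shape for the replicate number. The D2hgdh level of the Per2 label lies below the other groups on all 3 days, and Gm6685 lies above them in the Per1-/- label on all 3 days.

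The other 6 called genes were higher in the Per1-/- label, with the WT mean between those of the knockout labels. Tnfrsf11a encodes RANK, the receptor through which RANKL drives osteoclast formation from macrophage precursors. It measured 1.92, 2.48, and 2.97 FPKM against 1.1, 0.900, and 0.913 FPKM (log2 1.24, adjusted p = 0.0352). Il6ra, the interleukin-6 receptor subunit, measured 2.07, 1.19, and 2.25 FPKM against 0.783, 0.754, and 0.833 FPKM (log2 1.07, adjusted p = 0.0454). Ctsc, the lysosomal cathepsin that activates serine proteases of leukocytes, measured 9.90, 10.7, and 15.9 FPKM against 5.9, 4.56, and 5 FPKM (log2 1.20, adjusted p = 0.0481). The groups did not overlap in these genes, and replicate 3 labelled Per1-/- was the highest library in each.

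Ehd4, which acts in endocytic recycling, differed by 0.95 (adjusted p = 0.0369), with 12.9, 12.4, and 17.9 FPKM against 8.90, 6.34, and 6.94 FPKM. Evi2a, a membrane protein gene, measured 5.14, 4.03, and 5.34 FPKM against 2.02, 1.25, and 1.64 FPKM (log2 1.52, adjusted p = 0.0454). It overlaps Evi2 on its own strand and Nf1 on the other strand, and the libraries were not stranded, so reads cannot be assigned to it with certainty. Tmem268, a membrane protein of little known function, measured 3.38, 3.49, and 4.16 FPKM against 1.92, 1.83, and 2.09 FPKM (log2 0.88, adjusted p = 0.0108). D2hgdh remained called in each of the 6 fits that left out a library and Xaf1 in 5 of them. The calls of Ctsc, Evi2a, Tmem37, and mt-Tv were lost whichever library was left out, and each of the other 5 was kept in 1 to 3 of the 6 fits.

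Macrophage markers were the widest group that differed between the labels. Of 30 genes listed, 29 were tested and 25 were higher in the Per1-/- label by the wider rule, against 3.07% of all tested genes, with 0 lower. The median log2 difference was 1.42, and the 2 groups overlapped in none of the 29, of which 28 lay higher in the Per1-/- label and 1, Tmem119, lay lower. limma called 0 of the 29 with correction over all genes, although 26 had an unadjusted p at or under 0.05, and a fit of the day 2 libraries alone called 12. The main fit takes its spread from all days, and the replicates' mean levels of this list spread most on day 0, as given below. The fit of only the 6 compared libraries, which holds no day 0 library, also called 0 genes. Whether the day 0 spread bears on the calls was not tested. The summed level of the 29 was 829 to 1589 FPKM in the Per1-/- libraries, 305 to 538 FPKM in the Per2-labelled ones, and 471 to 693 FPKM in WT. Of the listed genes, Siglech alone was below the test's minimum level. The 25 became 16 without Per1-/- replicate 3, which had the highest sum, and 14 without Per2-labelled replicate 2, which had the lowest.

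Csf1r, the receptor that macrophages need for survival, measured 29.5, 23.0, and 38.6 FPKM in the Per1-/- libraries and 12.9, 7.49, and 11.5 FPKM in the Per2-labelled ones. All Per1-/- values were above those of WT (14.8, 11.2, and 17.0 FPKM), whereas Per2-labelled and WT values overlapped. The difference of the knockout labels was 1.51 (SE 0.527, adjusted p = 0.364). Adgre1, which encodes the surface marker F4/80, measured 14.4, 11.3, and 18.2 FPKM against 5.16, 4.06, and 5.83 FPKM (log2 1.52, adjusted p = 0.317). Mrc1, the mannose receptor CD206, measured 39.0, 29.6, and 51.3 FPKM against 10.4, 9.36, and 12.4 FPKM (log2 1.86, adjusted p = 0.16). P2ry12, an ADP receptor best known from microglia, measured 2.53, 2.40, and 3.12 FPKM against 0.794, 0.484, and 0.762 FPKM (log2 1.85, adjusted p = 0.12), the lowest adjusted p of the list. Itgam, the CD11b integrin chain, was lower in level at 3.29, 1.61, and 2.84 FPKM against 1.21, 0.664, and 1.38 FPKM (log2 1.17, adjusted p = 0.552). The fractalkine receptor Cx3cr1 (log2 1.04) and Tmem119 (log2 -0.25) were among the 4 tested members that did not pass. Tmem119 measured 41.3, 50.5, and 47.3 FPKM against 56.9, 55.1, and 53 FPKM.

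The Itgam promoter is printed because PU.1, the ETS factor that directs the macrophage programme, is known to act on it. Capitals mark GAGGAA on either strand.
Itgam, chr7:128062390-128062639, plus strand: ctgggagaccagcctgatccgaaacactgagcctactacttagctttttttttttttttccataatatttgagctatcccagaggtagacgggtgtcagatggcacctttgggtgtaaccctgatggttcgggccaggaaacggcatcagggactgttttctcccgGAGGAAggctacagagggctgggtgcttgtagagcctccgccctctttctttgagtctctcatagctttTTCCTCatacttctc
The motif occurred at 84 to 79 bases before the start and, on the other strand, at 15 to 10 bases before it. This is a match of letters in a motif that 23.3% of the windows held, not a bound site.

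Gene groups for sensing and engulfing by macrophages were higher in the Per1-/- label as well, where 3.07% of all tested genes were higher by the wider rule. Of the 18 tested genes for Fc receptors and their signalling through ITAM motifs, 17 were higher by the wider rule, with a median of 1.40. The list mixes activating genes with inhibitory ones, so the count does not measure ITAM signalling. The 17 higher genes included the inhibitory receptor Sirpa, with 38.2, 32.4, and 48.9 FPKM against 19.1, 14.1, and 20.3 FPKM (log2 1.15, adjusted p = 0.117). The Src-family kinase Lyn (log2 0.90, adjusted p = 0.16) was also among them. Of 17 tested complement genes, 8 were higher, with a median of 0.94. The C1q chains C1qa, C1qb, and C1qc differed by 1.87, 1.79, and 1.82, and C1qb reached 100.2, 94.6, and 154 FPKM against 41.1, 20.5, and 41.8 FPKM. The receptor C3ar1 differed by 1.43 (adjusted p = 0.356). Of 19 tested genes of the leukocyte cytoskeleton and adhesion, 14 were higher, with a median of 1.26, among them Arhgap30 (log2 1.56), Was (log2 1.23), and the class I myosin Myo1f (log2 1.60).

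Groups for innate sensing and degradation were described in the same way, beside the same share of 3.07% of all tested genes. Of 18 Toll-like receptors and adaptors, 10 were higher, with a median of 0.67, including Cd180 (log2 1.67, adjusted p = 0.248), Tlr1 (log2 1.05), Tlr2 (log2 0.72), and Cd14 (log2 1.23). Of 8 NADPH oxidase genes, 5 were higher, with Cybb, the catalytic subunit, at 1.33, while Cyba, which other cells also express, differed by 0.31. Of 16 cytokine and chemokine genes, 6 were higher. They included Ccl12, with 5.51, 3.06, and 4.21 FPKM against 0.282, 1.91, and 0.570 FPKM (log2 2.41, adjusted p = 0.373), Cxcl16 (log2 1.16), Tnf (log2 1.29, adjusted p = 0.599), and Tgfb1 (log2 0.66, adjusted p = 0.0904). Ccl2, the main attractant of monocytes, measured 14.1, 15.1, and 20.2 FPKM against 13.1, 6.81, and 8.61 FPKM and did not pass (log2 0.82, adjusted p = 0.728). Of 16 genes for uptake of apoptotic cells and scavenging, 5 were higher, including Msr1 (log2 1.81, adjusted p = 0.17) and Elmo1 (log2 0.89). Of 23 lysosomal enzymes, 4 were higher, with Ctsc, called above, and Lgmn, legumain (log2 0.76, adjusted p = 0.199), among them, and Ctsl at 0.41. Of 4 tested genes for antigen presentation on MHC class II, 0 passed by the wider rule, with a median of 0.17.

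These lists share members with the macrophage list, and their counts moved with the same libraries. Without Per1-/- replicate 3, the counts were 11 of 18 for the Fc receptor list, 4 of 17 for complement, 6 of 18 for Toll-like receptors, 1 of 8 for NADPH oxidase, and 2 of 16 for cytokines. Without Per2-labelled replicate 2 they were 12, 5, 5, 1, and 3, and the lysosomal enzymes had 2 of 23. The interferon list had 5 of 20 without that library, and 2 of 20 without Per1-/- replicate 2 or 3 or Per2-labelled replicate 1. Without Per1-/- replicate 1 the complement list had 5 of 17, the NADPH oxidase list 3 of 8, the cytokine list 4 of 16, the Toll-like receptor list 8 of 18, the leukocyte cytoskeleton list 11 of 19, the Fc receptor list 15 of 18, and the macrophage list 23 of 29. The cytokine list had 3 of 16 without Per2-labelled replicate 3. Replicate 2 labelled Per2-/- also held the highest Pou3f2 level (769.9 FPKM) of the 6 libraries, and whether this had a part in its low macrophage markers was not tested. In bulk RNA, fewer cells of a type and less RNA per cell cannot be told apart.

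**Figure D3:**
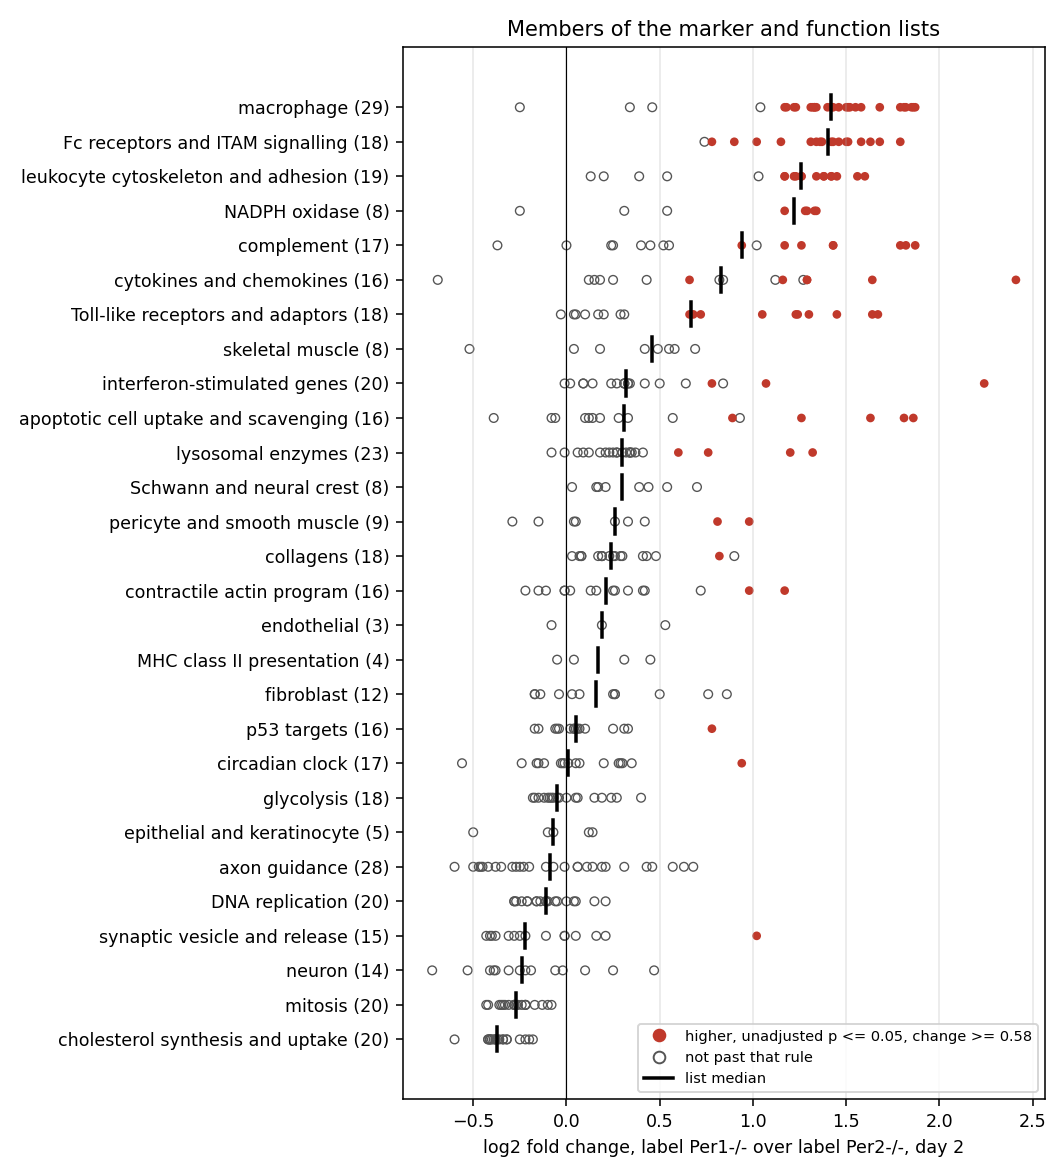
Log2 fold change of the Per1-/- over the Per2-/- label on day 2 for each tested member (1 point) of the lists with at least 3 tested genes, ordered by list median, with the number tested in brackets. Filled points passed the wider rule and open points did not, and the lists of macrophage functions lie at the top with medians up to 1.42, while all members of the mitosis and cholesterol lists lie below 0 without passing.

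The macrophage difference was seen on day 2 and not on day 0. The mean log2(FPKM + 0.1) of the 29 genes was 3.91, 3.67, and 4.28 in the Per1-/- libraries and 2.78, 2.25, and 2.80 in the Per2-labelled libraries on day 2. On day 0 it was 1.81, 2.29, and 3.88 against 3.06, 1.31, and 2.91, so that the groups overlapped. The replicate SD of this mean, first for the Per1-/- and then for the Per2 label, was 0.308 and 0.314 on day 2, against 1.08 and 0.973 before doxycycline. The list's median difference was 0.22 on day 0, where 0 of 29 genes passed the wider rule (0.804% of all genes were higher by it and 1.55% lower). On day 4 the median was 1.33, and the mean was 5.02, 4.47, and 4.82 against 3.52, 3.31, and 3.71. The change from day 0 to day 2 was tested as an interaction, and limma called 0 genes over the whole table. Of the 14932 tested genes, 670 had an unadjusted p below 0.05, a smaller share than that threshold lets through when nothing differs. By the wider rule, 242 genes had a more positive change in the Per1-/- label (1.62%) and 106 a more negative one (0.71%), and 7 of the 29 macrophage genes were among the former. Mrc1 was among them (interaction 1.64, adjusted p = 0.987), whereas Csf1r was not (interaction 1.40, adjusted p = 0.987).

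**Figure D4:**
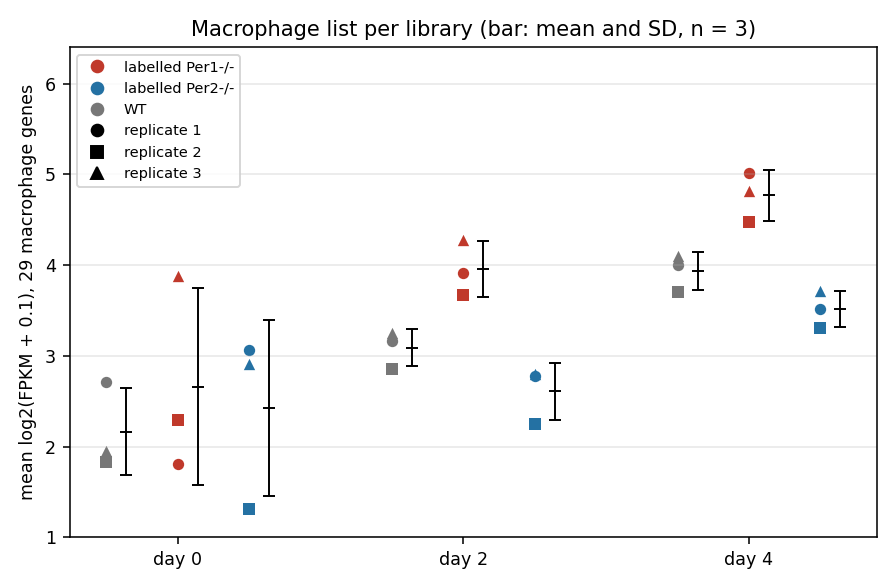
Mean log2(FPKM + 0.1) of the 29 tested macrophage genes in each library by day, with colour for the label, shape for the replicate number, and bars for the mean and SD of 3 libraries. The knockout labels overlap on day 0 and do not overlap on days 2 and 4, with the WT means between theirs.

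Other cell types gave no comparable group. Neutrophil and lymphoid markers (10 genes each) had no member above the test's minimum level, with 6 and 3 of them at 0 fragments in all 6 libraries, among them Elane and Mpo, and Cd3e and Cd8a. Globin genes were at 0 as well. Of the mast cell and basophil list 1 of 10 genes was tested, of the endothelial list 3 of 10, of the erythroid and megakaryocyte list 2 of 10, and of the epithelial list 5 of 10, and 0 of these passed by the wider rule. None passed either among 8 skeletal muscle and 8 Schwann and neural crest genes (3 of the latter did without Per2-labelled replicate 2), whose medians were 0.46 and 0.30. Of 9 genes of pericytes and smooth muscle, 2 were higher, Abcc9 (log2 0.81, adjusted p = 0.487) and the smooth muscle myosin Myh11 (log2 0.98, adjusted p = 0.588). The 2 became 1, 1, 1, and 0 without Per1-/- replicates 2 and 3 and Per2-labelled replicates 2 and 3. Myh11 ranged from 0.457 to 1.89 FPKM among the Per1-/- libraries and overlapped the Per2 label. Acta2 differed by 0.42 (adjusted p = 0.846).

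Fibroblast markers showed the main population of the culture in both labels. Of 12 tested genes 0 passed by the wider rule, and the list's median was 0.16. Col1a1 measured 1656, 1547, and 1650.4 FPKM against 1449.6, 1311, and 1301 FPKM (log2 0.26, adjusted p = 0.842), and the 95% interval of the difference ran from -0.19 to 0.71. Pdgfra differed by -0.04, with an interval from -0.97 to 0.90. Dcn (log2 0.86, adjusted p = 0.781) and Postn (log2 0.76, adjusted p = 0.695) had larger values with wide spread. All 18 collagen genes had a positive difference, with a median of 0.24. Col14a1 passed the wider rule (log2 0.82, adjusted p = 0.433) with overlapping groups, and Col5a1, at 269.9, 253, and 272 FPKM against 199, 192, and 179.8 FPKM, differed by 0.48 (adjusted p = 0.291), below the minimum fold change. The count of 1 became 0 without Per2-labelled replicate 1 or 3 and 3 without Per1-/- replicate 1.

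Several further genes, for secreted and for intracellular proteins, were higher in the Per1-/- label by the wider rule. Of all tested genes, 3.07% passed that rule as higher and 0.911% as lower. Which cells of the culture held these transcripts was not tested. By the rule for naming genes, Pappa, the protease that frees IGFs from their binding proteins, measured 9.25, 6.96, and 8.07 FPKM against 3.96, 3.75, and 4.98 FPKM (log2 0.92, adjusted p = 0.0804). Further genes named by that rule were the actin-binding protein Cotl1 (log2 0.82, adjusted p = 0.0808), the kinase Sik1 (log2 0.58), the scaffold Akap12 (log2 0.82), Slfn2 (log2 1.29), and the transcription factor Maf (log2 0.88). That rule takes only genes whose groups do not overlap. Fibronectin (Fn1) measured 702, 588, and 711 FPKM against 504, 397, and 427 FPKM (log2 0.59, adjusted p = 0.16). Igf1 measured 14.9, 10.5, and 12.7 FPKM against 4.81, 6.72, and 5.93 FPKM (log2 1.11, adjusted p = 0.126). Fbln2 (log2 0.72), Fndc1 (log2 1.04), Igfbp5 (log2 0.91), and Igfbp7 (log2 0.70) were likewise higher. These last 6 were picked after their values were seen, from 36 matrix and growth factor genes of which 35 were tested, 8 were higher by the wider rule, and 1, Ltbp1 (log2 -0.93, adjusted p = 0.439), was lower, a call by that rule which was lost without replicate 1 of either label or Per2-labelled replicate 3. Itga11, a collagen receptor of fibroblasts on the list of contractile genes, also differed (log2 1.17, adjusted p = 0.432), with 11.4, 8.80, and 10.3 FPKM against 4.90, 3.88, and 4.56 FPKM. That list had 2 of 16 higher, 5 without Per1-/- replicate 1, and 1 to 3 without each of the other libraries.

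Genes lower in the Per1-/- label included regulators of limb and skeletal patterning. Hoxa13, a homeobox gene of the most distal limb, measured 3.00, 8.90, and 4.43 FPKM in the Per1-/- libraries and 23.3, 9.28, and 18 FPKM in the Per2-labelled ones (log2 -1.66, SE 0.564, adjusted p = 0.355). Lmx1b, which sets dorsal identity in the limb, measured 2.29, 4.31, and 2.44 FPKM against 8.30, 4.69, and 8.56 FPKM (log2 -1.23, adjusted p = 0.289). Both genes were named by the rule that takes only genes whose groups do not overlap. Per1-/- replicate 2 and Per2-labelled replicate 2 lay next to each other. WT libraries spread over the same range, with Hoxa13 at 15.1, 19.0, and 4.96 FPKM. The same rule named Slc14a1, a urea transporter (log2 -1.67, adjusted p = 0.16), Masp1 of the lectin complement pathway (log2 -0.85), Neto2 (log2 -0.68), and the adhesion receptor Adgrg6 (log2 -0.79).

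Other patterning genes were looked up after these had been seen, so their count is a description. Of 40 regulators of limb and skeletal patterning written down, 33 were tested. By the wider rule 10 were lower in the Per1-/- label, against 0.911% of all tested genes, 0 were higher, and the median was -0.24. Msx1, a homeobox gene of undifferentiated limb mesenchyme, measured 0.776, 12.7, and 3.17 FPKM against 28.7, 9.86, and 27.2 FPKM (log2 -2.58, adjusted p = 0.453). The labels overlapped, with replicate 2 of the Per1-/- label far above its other replicates. Lhx2 (log2 -2.30), Lhx9 (log2 -1.31), Tfap2a (log2 -1.53), and Tfap2b (log2 -2.15) had the same order of replicates. The signalling proteins Bmp2 (log2 -1.28, adjusted p = 0.172), Fgf10 (log2 -0.93, adjusted p = 0.333), and Gdf5 (log2 -1.87) and the factor Sall1 (log2 -1.04, adjusted p = 0.223) did not overlap between the labels. Sall1 measured 1.03, 0.771, and 0.707 FPKM against 1.90, 1.68, and 1.84 FPKM. The 10 became 6 without Per1-/- replicate 1 and 6 without Per2-labelled replicate 1.

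A patterning difference was also seen on day 0. On that day 11 of the 33 genes were lower by the wider rule, against 1.55% of all tested genes, with a median of -0.53. Sall1 differed by -1.33 (adjusted p = 0.21) and Hoxa13 by -1.61 (adjusted p = 0.695). The interaction of label and day did not pass for either (interaction 0.29, adjusted p = 0.988, and -0.05, adjusted p = 1). Hox genes, which pattern the body axis, were described by position in their clusters. Of 12 tested genes of groups 10 to 13, 2 were lower on day 2, against 0.911% of all tested genes, with a median of -0.19. Of 15 of groups 5 to 9, 0 passed in either direction (median 0.18), and of 7 of groups 1 to 4, 1 was higher (median 0.28). The 2 lower became 1 when replicate 1 or 3 of either label was left out.

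**Figure D5:**
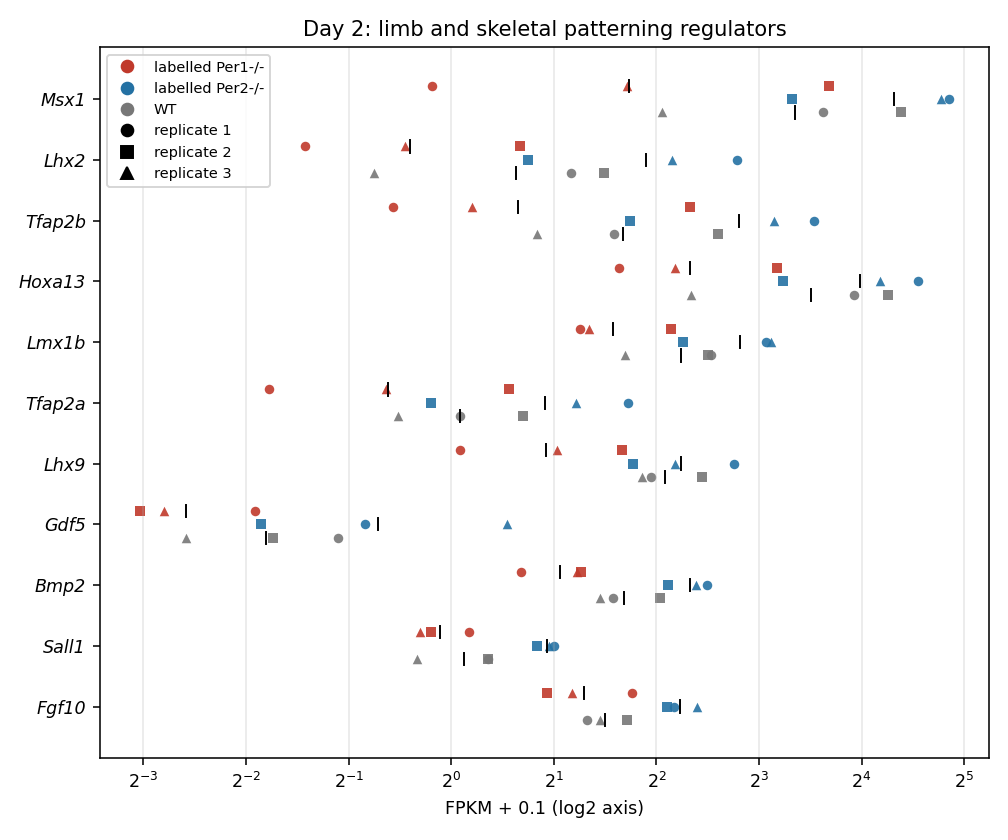
Levels of 11 limb and skeletal patterning regulators on day 2, as FPKM + 0.1 on a log2 axis, with 1 point per library, colour for the label, shape for the replicate number, and a bar at the mean of the log values. Replicate 1 labelled Per1-/- is the lowest library for Msx1, Lhx2, and Tfap2b, and the squares of replicate 2 of both knockout labels lie close together in most of the genes.

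A few peptide genes were lower in the Per1-/- label by the wider rule, as were 0.911% of all tested genes. Nts, the neurotensin precursor, measured 1.89, 0.988, and 0.242 FPKM against 3.40, 6.91, and 4.05 FPKM (log2 -2.37, adjusted p = 0.0828), with WT at 1.08, 1.07, and 1.15 FPKM. Its difference on day 0 was -0.15, and on day 4 it was -2.25 (adjusted p = 0.0357). Gcg, the proglucagon gene, measured 0.804, 0.826, and 1.01 FPKM against 2.06, 4.33, and 3.48 FPKM (log2 -1.74, adjusted p = 0.144). Penk, the enkephalin precursor, measured 35.9, 22.6, and 11.7 FPKM against 153, 33.9, and 125 FPKM (log2 -2.02, adjusted p = 0.445), and it differed by -1.93 on day 0. These 3 were chosen after their values were seen. They were the only genes past the wider rule among 20 tested of 33 peptide and secretory granule genes. The 3 lower genes became 5 without Per1-/- replicate 2, and 2 without Per1-/- replicate 3 or Per2-labelled replicate 1 or 3. Without Per2-labelled replicate 2, 1 gene of the list was higher. The median of the 20 was -0.12, and 9 of them had a positive difference.

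The reprogramming factors and neuronal genes were examined next, since the study asked how the Per genes bear on the making of iNs. Pou3f2 was lower in the Per1-/- label at 309, 299, and 249.9 FPKM against 340.5, 769.9, and 484 FPKM (log2 -0.82, adjusted p = 0.439), and WT measured 228, 245, and 406 FPKM. Myt1l measured 0.496, 0.777, and 0.757 FPKM against 0.976, 1, and 0.794 FPKM (adjusted p = 0.81). Myt1l was low in all 6 libraries, and the counting did not separate transgene from endogenous transcripts. Of 14 tested neuronal genes 0 passed by the wider rule, and the median was -0.24. When single libraries were left out, 2 were lower without Per1-/- replicate 2, and 1 was higher without replicate 1 of either label. Tubb3 measured 93, 119.8, and 95.3 FPKM against 91.7, 101, and 92.5 FPKM, with a 95% interval of the difference from -0.37 to 0.57. Map2 (log2 -0.25) and Mapt (log2 0.25) overlapped, while Syt1 (log2 -0.41, adjusted p = 0.66) and Elavl3 (log2 -0.53, adjusted p = 0.639) were lower in value without passing. Ncam1 went the other way (log2 0.47, adjusted p = 0.6). Of 15 synaptic vesicle genes 1 was higher, Sv2b (log2 1.02, adjusted p = 0.247). Of 28 axon guidance genes 0 passed with the minimum fold change, although Sema3a was lower in value (log2 -0.42, adjusted p = 0.364) and Plxnd1 (log2 0.46), Plxna4 (log2 0.57), and Epha5 (log2 0.43) were higher in value, and without single libraries the list had 0 to 2 higher, with 1 lower without Per2-labelled replicate 2.

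Clock genes gave few differences. Of 17 tested clock genes 1 was higher, Bhlhe41, a repressor that binds E-boxes, with 2.99, 2.60, and 4.10 FPKM against 1.95, 1.35, and 1.57 FPKM (log2 0.94, adjusted p = 0.315). Per2 was lower by -0.56 (adjusted p = 0.106), under the minimum fold change of 0.58. Cry2 differed by 0.29 (adjusted p = 0.42), and the median of the list was 0.01. Without Per1-/- replicate 1 there was also 1 lower clock gene.

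Lists for lipid synthesis and cell division had medians below 0. All 20 cholesterol genes were lower in value, with a median of -0.37, and 0 passed (Idi1: log2 -0.60, adjusted p = 0.789). Without Per2-labelled replicate 2, 6 of the 20 passed. All 20 mitosis genes were lower in value, with a median of -0.27 and 0 passing (Ccnb1: log2 -0.42, adjusted p = 0.702), with 3 lower without Per1-/- replicate 2 and 1 without Per2-labelled replicate 2. The medians were -0.11 for 20 DNA replication genes and -0.05 for 18 glycolysis genes, of which Pfkm differed by -0.18 (adjusted p = 0.427), and 0 of either list passed with the minimum fold change. Of 16 p53 targets 1 was higher, Gadd45a, with 4.91, 5.91, and 8.07 FPKM against 3.78, 3.34, and 3.5 FPKM (log2 0.78, adjusted p = 0.154). Cdkn1a differed by 0.33 (adjusted p = 0.578).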

How the data were processed

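Bulk RNA-seq of 27 libraries (3 genotype labels, days 0, 2, and 4, 3 replicates) was used. The authors made poly-A libraries that do not keep the strand, aligned them to GRCm38 (mm10) with HISAT2 2.0.5, and counted them on genes with featureCounts 1.5.0-p3. The deposited values were FPKM computed by the authors, which already held a size factor per library. With the deposited gene lengths, 100% of values in the 6 libraries gave whole fragments within 0.05.

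FPKM was converted to log2(FPKM + 0.1), which understates changes of low genes, and tested with limma 3.58.1 (R 4.3.3; lmFit, contrasts.fit, and eBayes with trend) in 1 fit of 9 groups. Benjamini-Hochberg adjustment ran over all 14932 tested genes. The p-values measure the spread between these libraries, which may be in part technical. The members and the 33 gene lists were chosen with earlier results of these data known. Genes were named where called, where among the 8 protein-coding genes per direction with the lowest unadjusted p at a mean of at least 5 FPKM and no overlap, from a list of 21 study genes, or as leading members of a list. Results of some genes are not reported here. Others are said to be chosen after their values were seen. The day 2 counts of a list by the wider rule are to be read against the shares of all tested genes, 3.07% higher and 0.911% lower. The replicate numbers did not pair the labels. The procedure was tested on simulated data. Tables were made in Python 3.11.15 (pandas 2.3.3, numpy 2.4.6) and plots with matplotlib 3.10.9.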

Additional observations from a re-analysis of the deposited data

How the results depend on the processing

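The 9 higher and 2 lower calls became 4 and 1 when all libraries were scaled to an equal FPKM sum, 0 and 0 in the fit of only the 6 libraries, and 78 and 4 in the fit of the 9 libraries of day 2. There were 5 higher calls with voom weights and 3 with the macrophage mean as a covariate, and 1 lower call with a filter of 1 FPKM or a pseudocount of 1 or 0.01. Leaving out each library gave 1 to 6 higher and 0 to 1 lower calls. The 459 and 136 genes of the wider rule became 928 and 547 with no filter, where 36800 genes were tested in place of 14932. They became 799 and 429 with no minimum fold change. The 136 became 212 with the macrophage covariate, 82 with a pseudocount of 1, and 98 to 211 without single libraries. With the replicate number as a block there were 17 higher calls and 1 lower, but same-numbered libraries of the labels did not deviate together (r = -0.173, -0.0752, and -0.0118), so the numbers do not pair them. The culture as a block over the days gave 10 and 3.

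Of the 11 called genes, D2hgdh and Xaf1 lost their call among these settings (single libraries aside) only in the fit of the 6 libraries. Tmem268 and Gm6685 also lost it with the macrophage covariate. Tnfrsf11a, Il6ra, Tmem37, Evi2a, and Ctsc lost it with a pseudocount of 1, and Ehd4, Il6ra, Tmem37, Evi2a, and Ctsc lost it with no filter. Scaling to an equal sum ended the calls of Tnfrsf11a, Ehd4, Il6ra, Tmem37, Evi2a, and Ctsc. The voom weights ended these 6 and mt-Tv, so 4 of the 11 were kept and 3 other genes were called, among them both of its lower calls. The macrophage covariate kept 3 of the 11, D2hgdh, Xaf1, and Tmem37. The fit of the day 2 libraries ended the calls of Ehd4 and Il6ra, the replicate block those of Tmem37 and Ctsc, and a pseudocount of 0.01 that of mt-Tv, which the filter of 1 FPKM removed.

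The median of the macrophage list was 1.25 to 1.43 under the other settings, 1.17 to 1.57 without single libraries, and -0.09 with its own mean as a covariate, which removes the list by construction and left 1 member past the wider rule. The 25 members became 14 to 25 without single libraries. The change from day 0 to day 2 had 0 calls in all fits but that with no filter, which had 1. With the covariate the signs of Csf1r (-0.14), Adgre1 (-0.04), Itgam (-0.38), C1qa (-0.09), Tnf (-0.17), C3ar1 (-0.09), Cybb (-0.21), Pdgfra (0.71), and Idi1 (0.01) reversed. Tubb3 (-0.01 to 0.17 without single libraries) and Pdgfra (-0.25 to 0.15) also reversed in some fits that left out a library. Csf1r, Adgre1, Itgam, C1qa, and Cybb are on the macrophage list, so the covariate holds their own values and takes up their differences by construction. For the other genes the cause of these changes was not tested. Depth limits genes under about 1 FPKM, where a library holds few fragments.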
